A study of Mus musculus with 12 samples.

Results

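D-type cyclins, the kinases they activate and the inhibitors of those kinases were followed in cultured neonatal mouse cardiomyocytes, in 10 genes chosen by name: the cyclin genes Ccnd1, Ccnd2 and Ccnd3, the kinase genes Cdk4 and Cdk6, the CIP/KIP inhibitor genes Cdkn1b and Cdkn1c, and the INK4 inhibitor genes Cdkn2a, Cdkn2b and Cdkn2c. They are 10 of the 55416 genes in the deposited table, each has a single row there, and all 10 were among the 21799 genes that were tested because their mean normalised read count was 1 or more. Cells received phenylephrine (PE), an alpha1-adrenergic agonist that makes cardiomyocytes hypertrophic, for 24 hours, or phosphate-buffered saline (PBS), and each treatment was combined with a GapmeR, an antisense oligonucleotide whose DNA core lets RNase H cut its target transcript. The 4 groups, with 3 libraries of polyadenylated RNA each, were PE with the lincRNA-p21 GapmeR (PE knockdown), PE with the negative-control GapmeR (PE control), PBS with the lincRNA-p21 GapmeR (PBS knockdown) and PBS with the negative-control GapmeR (PBS control). Every group therefore carried a GapmeR, and no group was left without one. Knockdown here names the groups with the lincRNA-p21 GapmeR. Loss of its target and other effects of the oligonucleotide cannot be told apart in these groups. Whether the libraries of a group came from different cultures or litters is not stated in the labels, so each p-value reflects the scatter of these libraries alone, which may be technical.

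In the textbook scheme of the cell cycle, a D-type cyclin made in response to growth signals binds CDK4 or CDK6, and the complex phosphorylates the retinoblastoma protein and its relatives, which then release E2F transcription factors to switch on the genes of DNA synthesis. INK4 proteins (p16, p15 and p18, from Cdkn2a, Cdkn2b and Cdkn2c) bind CDK4 and CDK6 and keep the cyclin out, whereas CIP/KIP proteins (p27 from Cdkn1b, p57 from Cdkn1c) inhibit cyclin E and cyclin A complexes of CDK2 and also bind cyclin D complexes. Rodent cardiomyocytes leave the cell cycle around birth, and both D-type cyclins and CIP/KIP inhibitors have been studied as part of that exit and of hypertrophic growth.

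The target of the GapmeR was checked first. Trp53cor1, the gene of lincRNA-p21, had normalised read counts of 8.56, 9.97 and 8.93 in the PE knockdown libraries and 56.0, 34.0 and 34.7 in the PE control libraries. It had 12.7, 22.6 and 10.1 in the PBS knockdown libraries and 59.8, 70.6 and 63.2 in the PBS control libraries. The groups did not overlap in either treatment, and the log2 changes with the lincRNA-p21 GapmeR were -2.03 ± 0.30 in PE and -2.10 ± 0.30 in PBS (limma, adjusted p = 9.2e-05 and 2.0e-04; the error of every log2 change is the limma standard error). The libraries held 21325485 to 22139681 reads in genes, and mitochondrial genes took 4.33% to 10.72% of them. All 7 cardiomyocyte markers were present in every group (Tnnt2, Tnni3, Myh6, Actn2, Ryr2, Myl7 and Pln), with a summed normalised read count of 429329 to 1038497 per library. Markers of other cells were present too, none of them at 0 in any group. In their own groups, PE knockdown replicate 1, PBS knockdown replicate 2 and PBS control replicate 2 lay farther from the group mean than the other libraries did, and fits without these 3 distant libraries are given where they change a call of one of the 10 genes, and as counts for the pathway lists. Rescaling all libraries to the same total moved the median log2 change of the 12113 genes with a mean of 50 or more to -0.15 for PE in both arms, and to 0.08 for the knockdown in both treatments, where it had been 0.00 or 0.01. After rescaling, 9.08% of all genes were called higher and 20.4% lower with PE in knockdown cells, 7.72% and 19.8% with PE in control cells, 6.91% and 5.06% with the knockdown in PE, and 2.21% and 2.31% with the knockdown in PBS.

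Ccnd1, Ccnd2 and Cdkn1c, which were called with PE in both arms, had no entry in the RefSeq promoter table. Among the genes with an entry, Cdk6 and Cdkn2c fell with the knockdown in PE, and Cdkn1b fell with PE. Cdk4, the partner kinase of Cdk6, was called in no comparison. Promoter sequences are shown for these 4, out of 7 genes with an entry. Each is the 250 bases before a RefSeq transcript start (GRCm38.p6), written 5′ to 3′ on the strand of the gene. They lie at chr5:3343643-3343892 on the plus strand (Cdk6), chr10:127063285-127063534 on the plus strand (Cdk4), chr4:109666757-109667006 on the minus strand (Cdkn2c, first of the listed starts) and chr6:134920151-134920400 on the plus strand (Cdkn1b). Capitals mark 3 motifs read on both strands: CACGTG (an E-box, the same on either strand), GGGCGG (the SP1 motif, seen as CCGCCC on the other strand) and CCAAT (the CCAAT box, seen as ATTGG on the other strand).
Cdk6: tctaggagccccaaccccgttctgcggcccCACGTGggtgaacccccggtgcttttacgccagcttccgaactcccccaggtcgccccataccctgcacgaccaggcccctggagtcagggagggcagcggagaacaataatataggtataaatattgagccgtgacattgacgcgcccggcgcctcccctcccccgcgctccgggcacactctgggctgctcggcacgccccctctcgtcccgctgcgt
Cdk4: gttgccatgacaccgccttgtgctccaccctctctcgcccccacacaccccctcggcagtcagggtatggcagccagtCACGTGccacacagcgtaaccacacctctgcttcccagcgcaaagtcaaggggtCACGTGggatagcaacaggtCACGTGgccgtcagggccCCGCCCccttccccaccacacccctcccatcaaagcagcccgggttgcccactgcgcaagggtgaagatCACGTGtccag
Cdkn2c: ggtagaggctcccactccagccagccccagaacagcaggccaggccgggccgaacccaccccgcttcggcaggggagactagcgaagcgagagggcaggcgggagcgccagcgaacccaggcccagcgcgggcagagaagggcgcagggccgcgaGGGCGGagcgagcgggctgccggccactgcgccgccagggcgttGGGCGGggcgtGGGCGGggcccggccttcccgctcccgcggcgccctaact
Cdkn1b: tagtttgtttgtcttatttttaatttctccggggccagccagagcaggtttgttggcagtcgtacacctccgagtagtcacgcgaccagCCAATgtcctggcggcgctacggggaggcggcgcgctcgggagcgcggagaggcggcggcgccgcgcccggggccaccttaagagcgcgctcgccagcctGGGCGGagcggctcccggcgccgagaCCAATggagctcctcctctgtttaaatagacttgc
In windows that also take in the 50 bases after the start, the Cdk4 promoter held 4 E-boxes and the Cdk6 promoter 1, against a share of 7.2% of all 32851 RefSeq mouse promoters of that length with at least 1. The SP1 motif occurred 4 times in the Cdkn2c window, 3 times in that of Cdk4 and 1 time in that of Cdkn1b, and not in that of Cdk6, and 35.7% of all promoters held it. The CCAAT box occurred 3 times in the Cdkn1b window and in none of the other 3, and 37.4% of all promoters held it. A pair of SP1 matches in the Cdk4 window overlapped, and no match overlapped one of another motif. None of the 4 windows held the E2F motif (TTTCCCGC, TTTCGCGC, TTTGCCGC or TTTGGCGC), the FOXO motif (TGTTTAC), the cyclic AMP response element (TGACGTCA) or the AP-1 motif (TGACTCA or TGAGTCA), which 2.3%, 3.6%, 1.8% and 5.2% of all promoters held. Of the 10 genes, 7 matched an entry of the RefSeq promoter table, all but Ccnd1, Ccnd2 and Cdkn1c. Among windows not shown, a start of Ccnd3 held the FOXO motif, a start of Cdkn2a the E2F motif and Cdkn2b the cyclic AMP response element. The second listed start of Cdkn2c held an E-box and a CCAAT box and no SP1 motif.

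Treatment with PE changed the make-up of this gene set in both arms of the study. Ccnd1 rose while Ccnd2, Cdkn1b and Cdkn1c fell, with the control GapmeR and with the lincRNA-p21 GapmeR alike. Cdkn1c changed the most of the 10 in either arm. In control cells 4 of the 10 genes passed the test, 1 higher and 3 lower, where 25.4% of all genes tested passed it, 12.6% higher and 12.8% lower. In knockdown cells 6 of the 10 passed, 1 higher and 5 lower, where 27.4% of all genes did, 13.4% higher and 14.0% lower. The median log2 change of the 10 genes was -0.16 in control cells and -0.25 in knockdown cells, and that of all genes tested was 0.00 in both. Libraries did not overlap between PE and PBS for 5 of the 10 genes in control cells and 6 in knockdown cells, against 41.7% and 38.7% of all genes tested.

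The lincRNA-p21 GapmeR changed fewer of these genes. In PE, Cdk6 and Cdkn2c fell and the other 8 were not called, where 11.7% of all genes were called, 4.57% higher and 7.14% lower. In PBS none of the 10 was called by limma, where 4.57% of all genes were, 1.36% higher and 3.21% lower. Cdk4, Cdk6 and Cdkn1b were under 0.05 there before adjustment, and none was called in PBS by edgeR, DESeq2 or limma-voom. The median log2 change of the 10 genes was -0.08 in PE and -0.07 in PBS, beside 0.01 and 0.00 over all genes tested. Libraries of the GapmeR groups did not overlap for 3 of the 10 genes in PE and 3 in PBS, close to the background of 30.5% and 22.0% of all genes tested. No interaction of PE with the knockdown was called among the 10 by limma, where 0.0550% of all genes were called, and none by edgeR, DESeq2 or limma-voom. Cdk6 and Cdkn2c were under 0.05 in the interaction before adjustment. Comparisons that share a group of libraries are not independent of each other, so their values are given side by side.

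**Figure D1:**
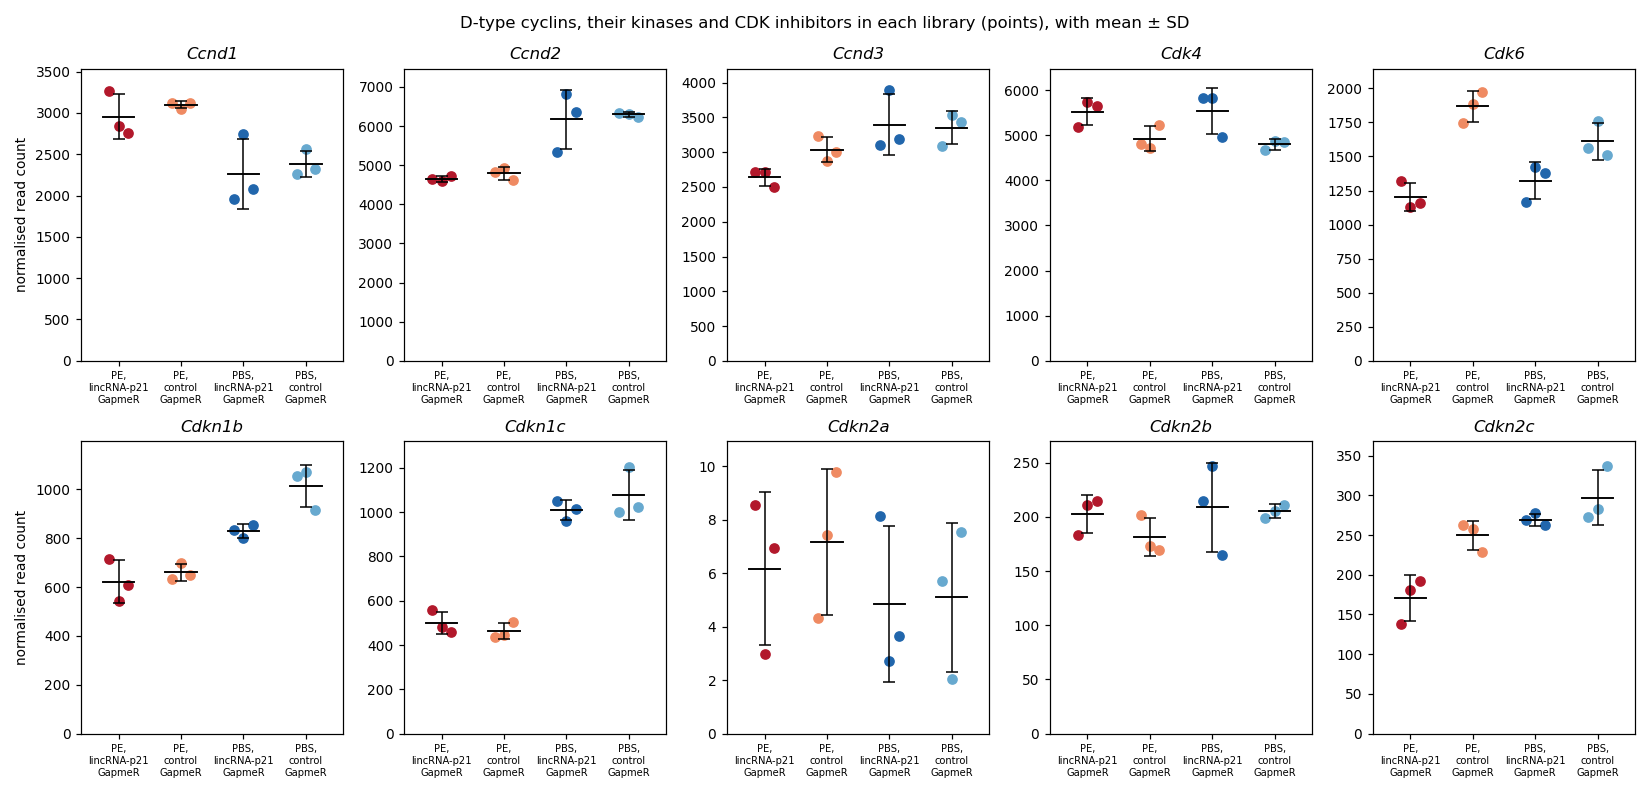
Normalised read count (y axis, from 0) of each of the 10 genes in the 12 libraries (points), with the mean and SD of each group of 3; groups run from PE with the lincRNA-p21 GapmeR on the left to PBS with the control GapmeR on the right. Cdkn1c sits between 437 and 558 in the 6 PE libraries and between 961 and 1205 in the 6 PBS libraries, and Cdk6 is lowest in the PE knockdown and PBS knockdown groups.

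**Figure D2:**
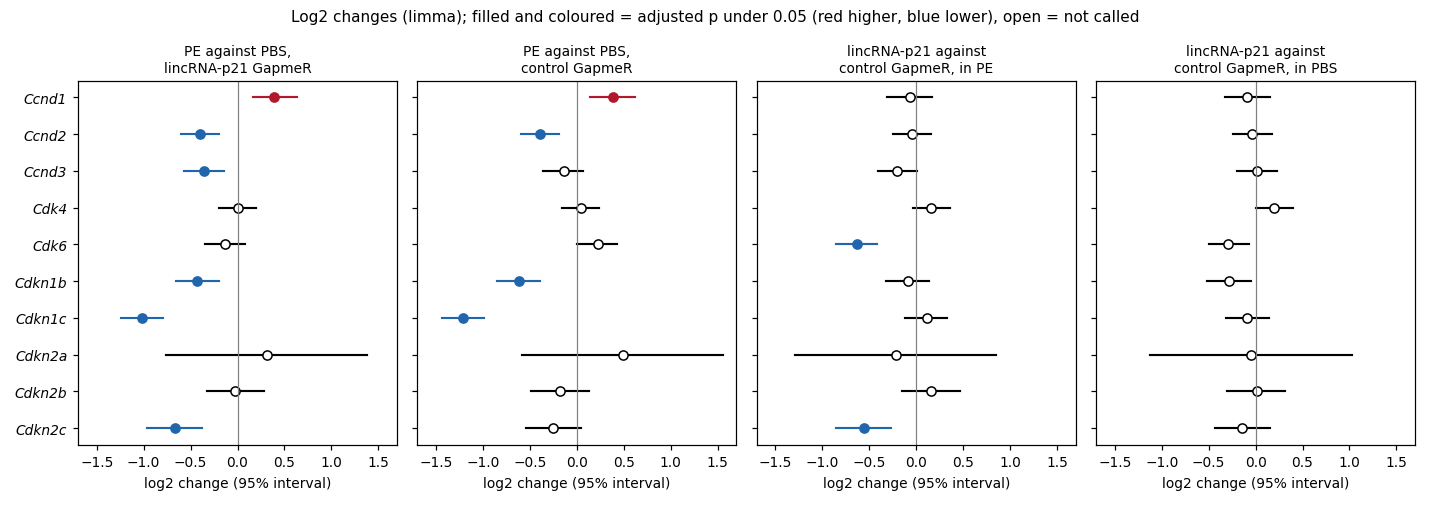
Log2 change (x axis) of each gene with its 95% interval in the 4 pairwise comparisons, one panel each; filled points passed limma at an adjusted p under 0.05 and open points did not. The panels for PE show Ccnd1 to the right and Ccnd2, Cdkn1b and Cdkn1c to the left of 0, and the panels for the GapmeR show Cdk6 and Cdkn2c filled in PE and no gene filled in PBS.

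Ccnd1 encodes cyclin D1, the D-type cyclin usually described as the sensor of mitogens. Its gene (ENSMUSG00000070348.6) lies on chromosome 7 of GRCm38, 144929931 to 144939925, on the minus strand. Its normalised read count was 3265, 2838 and 2757 in PE knockdown libraries, 3123, 3051 and 3123 in PE control libraries, 1961, 2749 and 2084 in PBS knockdown libraries and 2262, 2557 and 2326 in PBS control libraries. Every PE library was above every PBS library of its arm, although in the knockdown arm the lowest PE value and the highest PBS value nearly touched. The log2 change with PE was 0.39 ± 0.11 in knockdown cells and 0.38 ± 0.11 in control cells (limma, adjusted p = 0.014 and 0.018). Rescaling to the same total lost both calls and left 0.25 in knockdown cells and 0.22 in control cells (limma, adjusted p = 0.090 and 0.14). They were also lost without single libraries, namely PE knockdown replicate 1 or PBS knockdown replicate 1 or 3 in the knockdown arm and replicate 1 or 3 of either group in the control arm, and in the knockdown arm with only the 6 libraries compared (limma, adjusted p = 0.062). The gene LTO1 on the opposite strand shares 1100 exon bases with Ccnd1 at 8.91% of its level, and it fell with PE, by 0.57 in knockdown cells and 0.48 in control cells on the log2 scale (limma, adjusted p = 0.0018 and 0.0077). Whether the counting used strand is not stated in the sources. The knockdown left Ccnd1 at -0.07 ± 0.11 in PE and -0.09 ± 0.11 in PBS, neither called, with 95% intervals of -0.31 to 0.17 and -0.33 to 0.15, and in PE the sign turned on rescaling to the same total (0.01).

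Ccnd2 encodes cyclin D2 and moved the other way. The gene (ENSMUSG00000000184.13, chromosome 6, 127125162 to 127152193, minus strand) had 4641, 4586 and 4719 normalised reads in PE knockdown libraries, 4823, 4939 and 4608 in PE control libraries, 5345, 6823 and 6353 in PBS knockdown libraries and 6343, 6313 and 6229 in PBS control libraries. All 6 PE libraries were below all 6 PBS libraries. With PE, Ccnd2 fell by 24.7% in knockdown cells and fell by 23.9% in control cells, or -0.40 ± 0.10 and -0.39 ± 0.10 on the log2 scale (limma, adjusted p = 0.0038 and 0.0047), and both calls held in each of the 23 alternatives fitted. The knockdown changed Ccnd2 by -0.04 ± 0.10 in PE and in PBS, with 95% intervals of -0.25 to 0.16 and -0.24 to 0.17 and a sign that turned when values were rescaled to the same total (0.04 in PE, 0.03 in PBS).

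Ccnd3 encodes cyclin D3, the D-type cyclin often found in differentiated cells. The gene (ENSMUSG00000034165.17, chromosome 17, 47505051 to 47599691, plus strand) had 2709, 2717 and 2502 normalised reads in PE knockdown libraries and 3110, 3896 and 3189 in PBS knockdown libraries, which did not overlap. It had 3227, 2872 and 3000 in PE control libraries and 3088, 3533 and 3437 in PBS control libraries, which did. The log2 change with PE was -0.36 ± 0.10 in knockdown cells and -0.14 ± 0.10 in control cells (limma, adjusted p = 0.012 and 0.34). The difference between the 2 arms was itself not called (-0.21 ± 0.14, limma, adjusted p = 0.65). Without PE knockdown replicate 3, or with only the 6 libraries compared (limma, adjusted p = 0.053), the call in knockdown cells was lost, and rescaling to the same total added a call in control cells, at -0.30 (limma, adjusted p = 0.028). With the knockdown in PE, Ccnd3 was -0.20 ± 0.10 and passed only without the 3 distant libraries (-0.22, limma, adjusted p = 0.041). Bysl on the opposite strand shares 361 exon bases with Ccnd3 at 50.17% of its level and rose with PE, by 0.64 in knockdown cells and 0.66 in control cells (limma, adjusted p = 8.7e-05 and 6.6e-05).

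Set per kilobase of exon, so that genes of unlike length can be compared, the D-type cyclin transcripts changed order with PE. The length was that of all annotated exons of a gene together, 4709 bases for Ccnd1, 9409 for Ccnd2 and 8775 for Ccnd3. Which transcripts the cells made is not known, so the order and the size of the shares depend on these lengths. Ccnd1 made up 44.0% ± 2.0 of the 3 in PE knockdown cells and 43.5% ± 0.75 in PE control cells, against 31.4% ± 1.7 in PBS knockdown cells and 32.5% ± 0.98 in PBS control cells (mean ± SD, n = 3 each). Ccnd2 made up 34.8%, 33.7%, 43.1% and 43.0% in the same order of groups, and Ccnd3 21.2%, 22.8%, 25.4% and 24.5%. The Ccnd1 share was between 42.7% and 46.4% in the 6 PE libraries and between 29.9% and 33.6% in the 6 PBS libraries. These shares are ratios within a library and do not depend on how libraries are scaled to each other. The sum of the 3 cyclins was 1422 ± 64.7 normalised reads per kilobase in PE knockdown cells and 1513 ± 26.7 in PE control cells. It was 1524 ± 210 in PBS knockdown cells and 1557 ± 55.7 in PBS control cells. The PBS knockdown libraries ranged most widely (1339 to 1753). The upper end of that range is PBS knockdown replicate 2, named above as distant, and replicates 1 and 3 stood at 1339 and 1481.

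**Figure D3:**
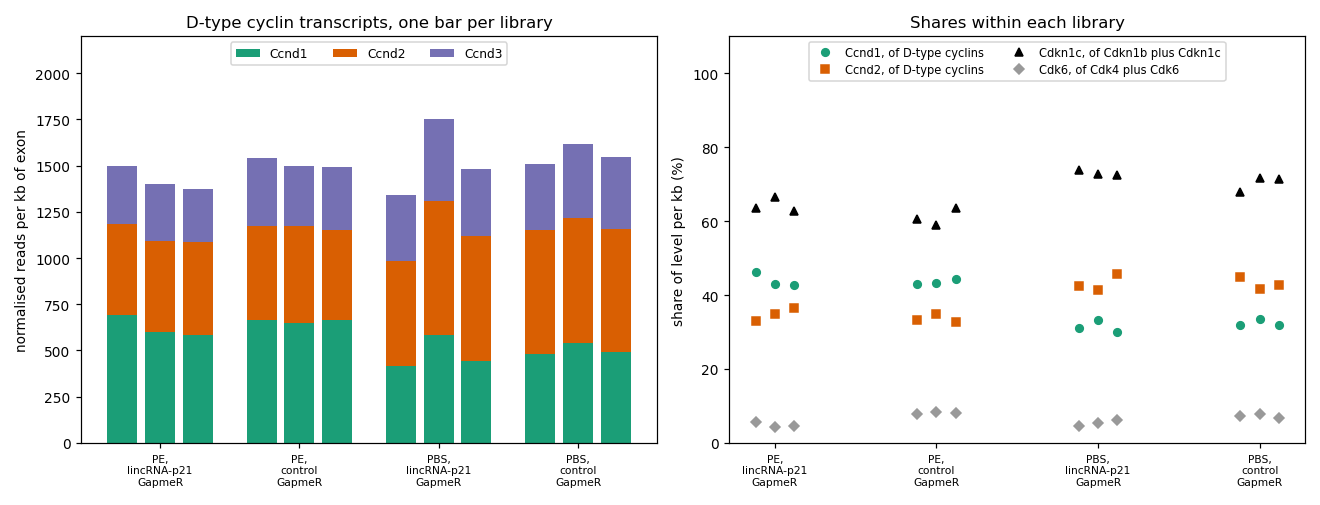
Left, normalised reads per kilobase of exon (y axis, from 0) of Ccnd1, Ccnd2 and Ccnd3 stacked for each library; right, shares in percent of Ccnd1 and Ccnd2 among the D-type cyclins, of Cdkn1c in Cdkn1b plus Cdkn1c and of Cdk6 in Cdk4 plus Cdk6, with a point for each library. Ccnd1 is above Ccnd2 in the PE groups and below it in the PBS groups, while the height of the stack spans 1339 to 1753.

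Cdk4 was the highest of the 10 genes per kilobase in every group and was not called in any comparison. The gene (ENSMUSG00000006728.13, chromosome 10, 127063534 to 127067920, plus strand) had 5180, 5736 and 5640 normalised reads in PE knockdown libraries, 4813, 4720 and 5235 in PE control libraries, 5824, 5834 and 4956 in PBS knockdown libraries and 4666, 4876 and 4850 in PBS control libraries. The log2 change with PE was 0.00 ± 0.10 in knockdown cells and 0.04 ± 0.10 in control cells, with 95% intervals of -0.20 to 0.20 and -0.16 to 0.24, and in control cells the sign turned when values were rescaled to the same total (-0.12). With the knockdown it was 0.16 ± 0.10 in PE and 0.20 ± 0.10 in PBS (limma, adjusted p = 0.33 and 0.27). Tspan31 on the opposite strand shares 641 exon bases with Cdk4 at 21.81% of its level and was itself not called in any of the 4 comparisons.

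Cdk6, the other kinase bound by D-type cyclins, was the member most affected by the knockdown. The gene (ENSMUSG00000040274.12) lies on chromosome 5, 3341485 to 3531008, on the plus strand. Its normalised read count was 1322, 1131 and 1159 in PE knockdown libraries and 1746, 1885 and 1970 in PE control libraries, a log2 change of -0.63 ± 0.10 (limma, adjusted p = 3.4e-04). It was 1167, 1420 and 1382 in PBS knockdown libraries and 1562, 1760 and 1508 in PBS control libraries, a log2 change of -0.29 ± 0.10 that did not pass (limma, adjusted p = 0.14). The knockdown libraries were below the control libraries in both treatments, and the mean of Cdk6 differed by -35.5% in PE and -17.8% in PBS. The call in PE held in each of the 23 alternatives, with log2 changes between -0.70 and -0.55. The difference between PE and PBS was not called (interaction -0.35 ± 0.15, limma, adjusted p = 0.45). With PE, Cdk6 was -0.13 ± 0.10 in knockdown cells and 0.22 ± 0.10 in control cells, neither called (limma, adjusted p = 0.38 and 0.15). Rescaling to the same total made the first a call, at -0.28 (limma, adjusted p = 0.044), and the second was called higher without the 3 distant libraries (0.28, limma, adjusted p = 0.0085). Per kilobase, Cdk6 made up 4.84% ± 0.66 of Cdk4 plus Cdk6 in PE knockdown cells, 8.10% ± 0.36 in PE control cells, 5.29% ± 0.82 in PBS knockdown cells and 7.23% ± 0.50 in PBS control cells.

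Genes of long span fell more often with this GapmeR than short ones. Cdk6 covers 189.5 kb, Ccnd3 94.6 kb and the other 8 genes at most 27.0 kb. Of the 524 genes with a mean of 50 or more and a span of 150 to 250 kb, 45.4% were called lower with the knockdown in PE, with a median log2 change of -0.36, and 20.0% in PBS, with a median of -0.20. Of the 10411 genes under 100 kb, 6.8% were called lower in PE, with a median of 0.03, and 2.7% in PBS, with a median of 0.04. The change of Cdk6 was -0.63 in PE and -0.29 in PBS, below both medians of the class of 150 to 250 kb. The part of gene span in the fall of Cdk6 was not tested. Cdkn2c, the other gene called lower, spans 6.3 kb, and in its class of 3 to 10 kb 4.0% of 2232 genes were called lower in PE.

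**Figure D4:**
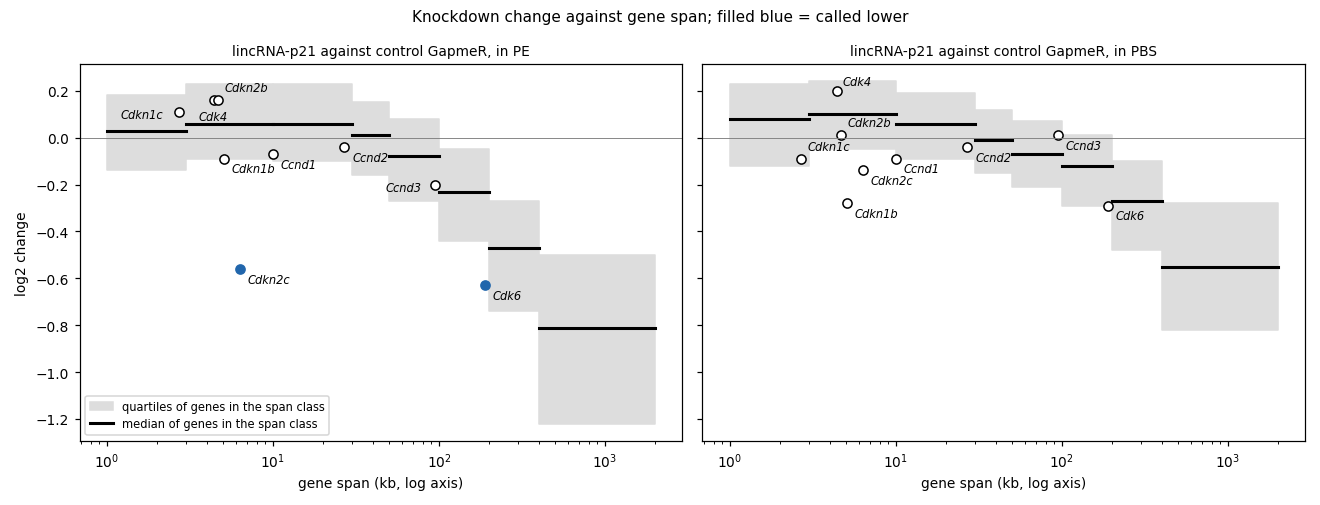
Log2 change with the lincRNA-p21 GapmeR (y axis) against gene span in kb (log x axis), in PE on the left and PBS on the right; bars give the median and grey boxes the quartiles of all genes with a mean of 50 or more in each span class, and points are 9 of the 10 genes (Cdkn2a, with 2 to 9 reads per library, is left out). In PE the class medians run from 0.03 in the shortest class to -0.81 in the longest, Cdk6 lies below the median of its class of 100 to 200 kb (-0.23), and Cdkn2c stands at -0.56 where its class median is 0.06.

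Cdkn1b encodes p27, an inhibitor that is abundant in resting cells. The gene (ENSMUSG00000003031.15, chromosome 6, 134920401 to 134925513, plus strand) had normalised read counts of 716, 541 and 608 in PE knockdown libraries, 633, 698 and 648 in PE control libraries, 833, 801 and 856 in PBS knockdown libraries and 1056, 1071 and 915 in PBS control libraries. All 6 PE libraries were below all 6 PBS libraries. With PE it fell by 25.1% in knockdown cells and fell by 34.9% in control cells, or -0.43 ± 0.11 and -0.62 ± 0.11 on the log2 scale (limma, adjusted p = 0.0064 and 2.9e-04). The call in knockdown cells was lost without PE knockdown replicate 2 (limma, adjusted p = 0.054), and that in control cells held in each of the 23 alternatives. With the knockdown, Cdkn1b was -0.09 ± 0.11 in PE and -0.28 ± 0.11 in PBS, where the libraries did not overlap but the change did not pass (limma, adjusted p = 0.69 and 0.17).

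Cdkn1c, an imprinted gene that encodes p57, changed more with PE than any other of the 10. The gene (ENSMUSG00000037664.14, chromosome 7, 143458339 to 143461050, minus strand) had 558, 482 and 459 normalised reads in PE knockdown libraries and 437, 447 and 505 in PE control libraries. It had 1049, 961 and 1015 in PBS knockdown libraries and 1002, 1205 and 1025 in PBS control libraries. The highest PE library was thus well below the lowest PBS library. With PE it fell by 50.4% in knockdown cells and fell by 57.0% in control cells, or -1.02 ± 0.11 and -1.21 ± 0.11 on the log2 scale (limma, adjusted p = 9.0e-07 and 8.0e-08), and over the 23 alternatives these ran from -1.16 to -0.96 and from -1.37 to -1.13, all called. The knockdown changed Cdkn1c by 0.11 ± 0.11 in PE and -0.09 ± 0.11 in PBS, with 95% intervals of -0.12 to 0.33 and -0.32 to 0.14.

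Together, Cdkn1b and Cdkn1c gave 382 ± 42.7 normalised reads per kilobase in PE knockdown cells and 372 ± 18.1 in PE control cells, against 677 ± 26.4 in PBS knockdown cells and 751 ± 65.7 in PBS control cells. The ratio of the summed D-type cyclins to this pair was 3.75 ± 0.24 in PE knockdown cells, 4.07 ± 0.27 in PE control cells, 2.26 ± 0.40 in PBS knockdown cells and 2.08 ± 0.12 in PBS control cells (mean ± SD, n = 3 each). Its lowest value in a PE library was 3.47 and its highest in a PBS library 2.71. This ratio leaves out Cdkn1a, the third CIP/KIP gene, which was higher per kilobase than the pair and rose with PE. Cdkn1a stood at 5326 in PE knockdown cells, 5554 in PE control cells, 3599 in PBS knockdown cells and 3889 in PBS control cells. The ratio is therefore not one of D-type cyclins to all CIP/KIP transcripts. Since Cdkn1c fell more than Cdkn1b, the share of Cdkn1c in the pair was 64.3% ± 2.0 and 61.0% ± 2.3 in the PE knockdown and PE control groups. It was 73.0% ± 0.63 and 70.3% ± 2.1 in the PBS knockdown and PBS control groups.

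Markers of other cell types also differed between PE and PBS libraries. The summed normalised read count of 9 fibroblast markers was 34658 to 38561 in PE knockdown libraries, 42198 to 46262 in PE control libraries, 66174 to 78493 in PBS knockdown libraries and 72273 to 78221 in PBS control libraries, and 8 of the 9 fell with PE in knockdown cells and 7 in control cells. The sum of 7 endothelial markers was 4542 to 5522, 5428 to 5945, 2006 to 2027 and 2038 to 2242 in the same order of groups, and 6 of the 7 rose and 1 fell with PE in each arm. Of the 7 cardiomyocyte markers, 2 rose and 1 fell with PE in each arm. Their sum was 603674 to 713511 in PE knockdown libraries and 755065 to 1038497 in PE control libraries. It was 429329 to 470102 in PBS knockdown libraries and 526368 to 632351 in PBS control libraries, so this sum was lower in knockdown libraries in each treatment. Myh6 alone made up most of the sum in control cells, with a mean of 604630 in 870188 in PE and 323169 in 563290 in PBS. Of 7 leukocyte markers, 4 rose with PE in knockdown cells and 3 in control cells, and 0 fell in either arm. Smooth muscle and pericyte markers, 6 in all, went both ways, with 2 higher and 3 lower with PE in knockdown cells and 3 higher and 3 lower in control cells. In such bulk libraries fewer cells of a type and less RNA per cell cannot be told apart, and the part of other cells in the fall of Cdkn1c, Cdkn1b and Ccnd2 was not tested. With the knockdown in PE, 2 fibroblast, 2 endothelial, 1 cardiomyocyte and 1 smooth muscle and pericyte markers fell and no leukocyte marker was called, and in PBS none of the 36 markers of the 5 lists was called by limma, while 7 were under 0.05 before adjustment. Without the 3 distant libraries, 4 fibroblast markers fell with the knockdown in PE and 4 in PBS, and 4 cardiomyocyte markers fell in PE and 1 in PBS.

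The INK4 genes were the lowest group. Cdkn2c encodes p18, and its gene (ENSMUSG00000028551.15, chromosome 4, 109660876 to 109667189, minus strand) had 138, 181 and 193 normalised reads in PE knockdown libraries. It had 263, 257 and 229 in PE control libraries, 268, 277 and 262 in PBS knockdown libraries and 272, 282 and 337 in PBS control libraries. The PE knockdown libraries were below the libraries of all other groups. With the knockdown in PE, Cdkn2c fell by 31.6%, a log2 change of -0.56 ± 0.14 (limma, adjusted p = 0.011), and with PE in knockdown cells it fell by 36.6%, a log2 change of -0.67 ± 0.14 (limma, adjusted p = 0.0011). These comparisons share the PE knockdown libraries. The call for the knockdown was lost without PE knockdown replicate 1, PE control replicate 1 or PE control replicate 2 (highest limma adjusted p = 0.060), and the call for PE held in each of the 23 alternatives. In the other arms the changes were -0.25 ± 0.14 with PE in control cells and -0.14 ± 0.14 with the knockdown in PBS (limma, adjusted p = 0.22 and 0.68), and the interaction of -0.42 ± 0.20 was not called (limma, adjusted p = 0.49).

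Cdkn2a and Cdkn2b are neighbours on chromosome 4, 11.6 kb apart. Cdkn2b encodes p15 (ENSMUSG00000073802.6, 89306299 to 89311039, minus strand) and had 183, 211 and 214 normalised reads in PE knockdown libraries, 201, 173 and 169 in PE control libraries, 215, 247 and 165 in PBS knockdown libraries and 199, 206 and 211 in PBS control libraries. The groups overlapped in each comparison and none of the changes was called, the largest being -0.18 ± 0.15 with PE in control cells (limma, adjusted p = 0.41). Cdkn2a (ENSMUSG00000044303.7, 89274471 to 89294653, minus strand) encodes p16 and, from another first exon, p19Arf, whose reads the table counts in a single row. It was near the limit of detection, with 3 to 8 reads in PE knockdown libraries, 4 to 9 in PE control libraries, 3 to 9 in PBS knockdown libraries and 2 to 8 in PBS control libraries. Its log2 change with PE in control cells was 0.49 with a 95% interval of -0.58 to 1.56, which holds both a fall and more than a doubling.

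Ranked by level per kilobase of exon, Cdk4 came first and Cdkn2a last in each of the 4 groups. This ranking, too, depends on the lengths of all annotated exons together. In both PE groups the order from the top was Cdk4, Ccnd1, Ccnd2, Ccnd3 and Cdkn1c, and none of these neighbours overlapped in library values. In PE control cells they stood at 1515 ± 84.5, 658 ± 8.84, 509 ± 17.9, 346 ± 20.5 and 227 ± 17.8 normalised reads per kilobase. In both PBS groups the order was Cdk4, Ccnd2, Cdkn1c, Ccnd1 and Ccnd3, in PBS control cells at 1477 ± 35.2, 669 ± 6.25, 528 ± 54.4, 506 ± 33.0 and 382 ± 26.6. There Cdkn1c and Ccnd1 overlapped and did not differ beyond their spread, in both PBS groups, as did Ccnd1 and Ccnd3 in PBS knockdown cells. Below them, Cdkn1b, Cdkn2b, Cdk6 and Cdkn2c lay between 63.6 and 223 in every group, and several of these neighbours overlapped, such as Cdkn1b with Cdk6 and Cdk6 with Cdkn2b in PE control cells. Cdkn2a was between 4.13 and 6.12.

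Around these 10 genes, 39 further genes of the pathway were read from the same test, in 3 lists. Of the 13 pocket protein and E2F genes, 2 fell and 0 rose with PE in knockdown cells and 4 fell and 0 rose in control cells by limma. Of all genes tested, 14.0% fell and 13.4% rose in knockdown cells, and 12.8% fell and 12.6% rose in control cells. Without the 3 distant libraries these shares of all genes were 14.8% and 14.6% in knockdown cells and 16.6% and 17.4% in control cells. In that fit, 3 of the 13 fell and 1 rose in knockdown cells and 4 fell and 2 rose in control cells. E2f4, an E2F factor known mainly as a repressor and named here after its values were seen, was the one called higher in knockdown cells, at 0.46, and with Tfdp1 in control cells, at 0.42 and 0.20 (limma, adjusted p = 1.3e-04, 1.2e-04 and 0.044). Rbl2, which encodes the retinoblastoma relative p130 found in resting cells, fell by 1.01 ± 0.10 in knockdown cells and 0.79 ± 0.10 in control cells on the log2 scale (limma, adjusted p = 5.5e-07 and 1.0e-05). Tfdp2, a dimer partner of E2F factors, fell by 0.70 ± 0.11 and 0.67 ± 0.11 in these arms (limma, adjusted p = 5.0e-05 and 8.9e-05), and in control cells E2f2 fell by 1.20 ± 0.27 and Rbl1, which encodes p107, by 0.43 ± 0.11 (limma, adjusted p = 0.0023 and 0.0055). Of the 12 genes of later cyclins, their kinases and E2F targets, 1 rose and 2 fell in knockdown cells and 3 fell in control cells. Ccnb2, a mitotic cyclin, fell by 0.52 ± 0.13 and 0.65 ± 0.13 in the knockdown and control arms, and Cdk2, the kinase of cyclins E and A, by 0.37 ± 0.09 and 0.36 ± 0.09 (limma, adjusted p from 7.6e-04 to 0.0070). Cdc25a, a phosphatase that activates CDK2, rose by 0.30 ± 0.10 in knockdown cells and Ccna2, the gene of cyclin A2, fell by 0.28 ± 0.10 in control cells (limma, adjusted p = 0.036 and 0.044).

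In the list of 14 other inhibitors and factors of assembly and turnover, 1 rose and 4 fell with PE in knockdown cells and 3 rose and 1 fell in control cells. Cdkn1a, the gene of p21 and the third CIP/KIP member, rose by 0.56 ± 0.12 in knockdown cells and 0.53 ± 0.12 in control cells (limma, adjusted p = 0.0017 and 0.0030). It stood at 18924 ± 2433 normalised reads in PE knockdown cells and 19735 ± 362 in PE control cells, against 12786 ± 401 in PBS knockdown cells and 13816 ± 2296 in PBS control cells. Per kilobase that was 5326 in PE knockdown cells and 3889 in PBS control cells, above each of the 10 genes in every group. Its direction was thus opposite to that of Cdkn1b and Cdkn1c. Fbxo31, an F-box protein known to bring cyclin D1 to degradation, fell by 0.66 ± 0.12 in knockdown cells and 0.33 ± 0.12 in control cells (limma, adjusted p = 2.2e-04 and 0.043). In knockdown cells Foxo3, a forkhead factor known to activate Cdkn1b, fell by 0.83 ± 0.11 and Cdkn2d, the INK4 gene of p19, by 0.80 ± 0.17 (limma, adjusted p = 1.3e-05 and 0.0013). In control cells Mnat1, an assembly factor of the CDK-activating kinase, rose by 0.41 ± 0.13 and Cdc37, a chaperone partner of kinases including CDK4, by 0.31 ± 0.11 (limma, adjusted p = 0.022 and 0.049). Over the 39 genes, 2 rose and 8 fell with PE in knockdown cells, with a median log2 change of 0.04, and 3 rose and 8 fell in control cells, with a median of -0.06. The called shares of 25.6% and 28.2% were near those of all genes, 27.4% and 25.4%. By direction, 5.13% of the 39 rose and 20.5% fell in knockdown cells, beside 13.4% and 14.0% of all genes. In control cells 7.69% rose and 20.5% fell, beside 12.6% and 12.8% of all genes. Without the 3 distant libraries 3 rose and 10 fell in knockdown cells and 5 rose and 9 fell in control cells, or 33.3% and 35.9% of the 39 beside 29.4% and 34.1% of all genes. With values rescaled to the same total, 1 rose and 12 fell in knockdown cells and 1 rose and 11 fell in control cells, and the rises of Cdc25a, Mnat1 and Cdc37 were no longer called (limma, adjusted p from 0.16 to 0.32). This check of the lists was chosen after seeing the data, as was that without the 3 distant libraries.

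With the knockdown, more of the 39 genes were called lower than higher in both treatments, as was so of all genes in the values as deposited, though not in PE after rescaling to the same total. In PE 2 rose and 12 fell, with a median log2 change of -0.18, and in PBS 0 rose and 8 fell, with a median of -0.22, where the medians of all genes tested were 0.01 and 0.00. The shares called lower were 30.8% of the 39 beside 7.14% of all genes in PE, and 20.5% beside 3.21% in PBS. All genes here include genes with a mean as low as 1, which are harder to call. Of genes with a mean of 50 or more, 6.8% under 100 kb and 42.9% of at least 100 kb were called lower in PE. In PBS these shares were 2.7% and 21.4%. Rescaled to the same total, 3 rose and 9 fell in PE and 0 rose and 7 fell in PBS, and without the 3 distant libraries 4 rose and 16 fell in PE and 0 rose and 11 fell in PBS. The shares called lower without these libraries were 41.0% of the 39 beside 12.1% of all genes in PE, and 28.2% beside 5.18% in PBS. That fit also called Foxo3 and Gsk3b in the interaction, at -0.51 and -0.53 (limma, adjusted p = 0.028 and 0.040), neither of which was called with all 12 libraries (adjusted p = 0.15 and 0.42 by limma). Tfdp1, the main dimer partner of E2F factors, fell by 0.83 ± 0.09 in PE and 0.68 ± 0.09 in PBS (limma, adjusted p = 4.6e-06 and 1.4e-04). Ambra1, the substrate receptor known to send D-type cyclins to degradation, fell by 1.21 ± 0.12 in PE and 0.65 ± 0.12 in PBS (limma, adjusted p = 6.6e-07 and 0.0020), while Ccnd1, Ccnd2 and Ccnd3 transcripts were not called. Of the 12 later cyclins, their kinases and E2F targets, 3 fell and 0 rose in PE and 5 fell and 0 rose in PBS. Top2a, a topoisomerase of dividing cells, fell by 0.55 ± 0.12 in PE and 0.61 ± 0.12 in PBS and Mki67, the gene of the proliferation antigen Ki-67, by 0.50 ± 0.14 and 0.77 ± 0.14 (limma, adjusted p from 0.0030 to 0.028), as did Ccna2 by 0.41 ± 0.10 and 0.55 ± 0.10 (limma, adjusted p = 0.0078 and 0.0019). Of these 3 genes the GapmeR groups overlapped only for Mki67, in PE. Other genes of DNA synthesis in the list, named after their values were seen, were not called, with Pcna at 0.19 in PE and 0.02 in PBS and Mcm2 at -0.08 and 0.12. Cdc25a stood at 0.26 in PE and 0.06 in PBS. Cdc25a was called higher in PE without the 3 distant libraries and after rescaling (0.30 and 0.35, limma, adjusted p = 0.016 and 0.043), and Pcna without those libraries (0.25, limma, adjusted p = 0.028). In PE, E2f3 fell by 0.49 ± 0.09, Rbl2 by 0.40 ± 0.10 and Tfdp2 by 0.36 ± 0.11 (limma, adjusted p = 0.0016, 0.016 and 0.033), the last of which, like Rbl2, was not called after rescaling to the same total. Foxo3 fell there by 0.74 ± 0.11, Gsk3b, a kinase known to mark cyclin D1 for degradation, by 0.60 ± 0.12, and Cdkn2d by 0.54 ± 0.17 (limma, adjusted p = 1.2e-04, 0.0016 and 0.044), and Cdkn2d was not called after rescaling (limma, adjusted p = 0.12). In PBS, Ccne2, the gene of cyclin E2, fell by 0.85 ± 0.19 and E2f7, a repressor among the E2F factors, by 0.71 ± 0.16 (limma, adjusted p = 0.011 and 0.013). Of the 12 genes that fell in PE, 4 span at least 100 kb, among them Ambra1 with 188.7 kb and Gsk3b with 157.1 kb, and the part of span in their fall was not tested. Exons of Rbl2 overlap those of Aktip, which stands at 112.4% of its level, those of Ccne2 overlap Ints8 at 296.5% and those of Ccna2 overlap Exosc9 at 67.8%, so reads of these pairs may not have been told apart.

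**Figure D5:**
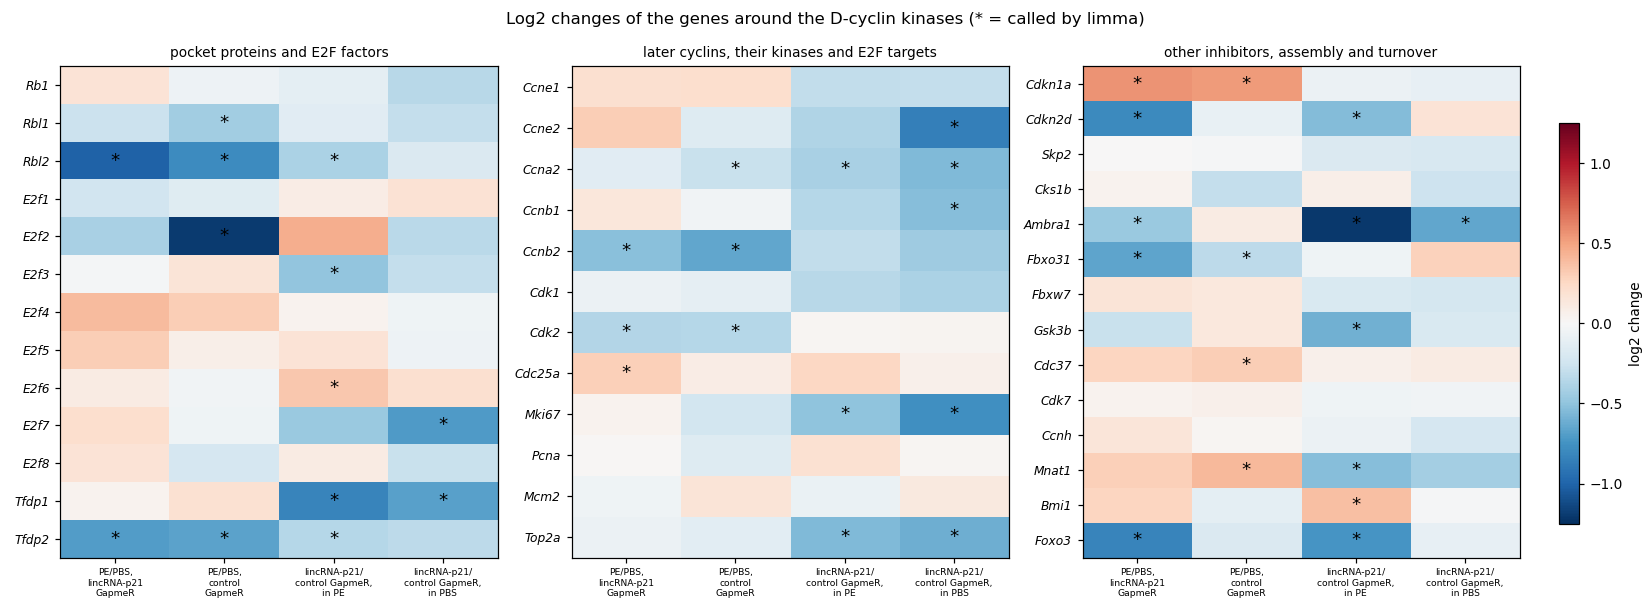
Log2 change (colour, red higher and blue lower) of 39 further genes of the pathway in rows, in 3 lists, for the 4 comparisons in columns, PE over PBS in the left pair and the lincRNA-p21 over the control GapmeR in the right pair; stars mark limma calls at an adjusted p under 0.05. Stars in the GapmeR columns are mostly on blue fields, with 12 lower and 2 higher in PE and 8 lower and 0 higher in PBS.

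Genes whose log2 values ran most like those of a member over the 12 libraries were looked up for the 3 members that differed most between the 4 groups, among 12104 other genes with a mean of 50 or more. They are given as a description, since the libraries share their groups and their depth. Cdkn1c ran most like Mfap2, a gene of elastic microfibrils (Pearson r = 0.995), Rspo1, a secreted activator of Wnt signalling (r = 0.989), and Btd, the gene of biotinidase (r = 0.987). Mfap2 had a mean of 138 in PE knockdown cells, 120 in PE control cells, 551 in PBS knockdown cells and 634 in PBS control cells. Among the genes that ran most like Cdkn1b were Itih5 (r = 0.970) and Art4 (r = 0.963). Cdk6 ran most like the transcription factor gene Zbtb20 (r = 0.980), the kinase gene Map3k20 (r = 0.971) and the homeobox gene Cux1 (r = 0.970). Zbtb20 had a mean of 2500 in PE knockdown cells, 6632 in PE control cells, 2863 in PBS knockdown cells and 4552 in PBS control cells.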

How the data were processed

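PolyA RNA was sequenced as 100-base read pairs from 12 libraries of neonatal mouse cardiomyocytes, 3 in each of 4 groups, per the labels. The submitters' processing notes name STAR, SAMtools, featureCounts and GRCm38.p6; neither versions nor the strand setting are stated in the sources. The deposited table holds a signal per gene: each column was found to be read counts scaled by a single size factor, since every value times that factor (0.921 to 1.106) was whole within 0.001, 100% of values in each library. Genes were named through GENCODE M21, which 52083 of the 55416 IDs matched without their version number and 35 with it.

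Tests were limma 3.58.1 (R 4.3.3) on log2(value + 1) with a trended prior, over all 21799 genes with a mean of at least 1 and all 12 libraries, two-sided, Benjamini-Hochberg adjusted over all genes and called under 0.05. Fold changes on this scale understate changes of low genes such as Cdkn2a. Alternatives were edgeR 4.0.16, DESeq2 1.42.0 and limma-voom on the recovered reads, other filters, pseudocounts and scalings, and fits without libraries. The tests were tried on simulated data first. Libraries with the same replicate number did not deviate together (r from -0.435 to 0.409), so they were not paired. Levels between genes were set per kilobase of exon.

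The 10 genes, the pathway lists, the marker lists and the tests were chosen with earlier results of these data known. From each pathway list, at most 4 called genes with the largest change in a comparison were named, and like genes were sought for the 3 members with the smallest F-test p over the groups. One of these like genes is not reported here.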

Additional observations from a re-analysis of the deposited data

How the results depend on the processing

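The 10 genes gave 50 changes (5 comparisons, the interaction among them), and 1135 values of these changes were read from the alternative fits. These values are not independent of each other. Where the library left out belongs to neither group compared, the log2 change stays the same and only the estimate of its error can move. Of the 1135 values, 1062 kept direction and side of the threshold, 16 lost a call, 4 gained one and 53 turned the sign of a change that was not called. No called change turned sign in these fits. With the values rescaled to the same total, the signs that turned were those of Cdk4 with PE in control cells (-0.12), Ccnd1 (0.01) and Ccnd2 (0.04) with the knockdown in PE, Ccnd2 (0.03) and Cdkn2a (0.01) with the knockdown in PBS, and Ccnd2 in the interaction (0.01). Without the 3 distant libraries they were those of Cdk4 (0.08), Cdkn2a (-0.22) and Cdkn2b (0.18) with PE in knockdown cells, Ccnd3 (-0.05), Cdkn1c (0.03) and Cdkn2b (-0.12) with the knockdown in PBS, and Ccnd2 (0.07), Cdk4 (0.03) and Cdkn1c (0.00) in the interaction. The genes called over the whole table were 2553 with the knockdown in PE, 997 with the knockdown in PBS and 12 in the interaction. Without the 3 distant libraries they were 4664, 1859 and 144 in these comparisons. With only the 6 libraries compared, 392 were called with the knockdown in PBS, and DESeq2 called 124 in the interaction. The causes were not tested.

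Leaving out each library in turn, genes called ranged from 1673 to 3503 with the knockdown in PE, from 517 to 1183 with the knockdown in PBS and from 4 to 22 in the interaction, and members called with the knockdown in PE from 1 to 2. With PE, Cdk4 ranged from -0.08 to 0.04 in knockdown cells and from -0.01 to 0.07 in control cells, and Cdkn2b in knockdown cells from -0.19 to 0.10. With the knockdown in PE, Cdkn1b ranged from -0.20 to 0.00 and Cdkn2a from -0.50 to 0.15. With the knockdown in PBS, Ccnd1 ranged from -0.23 to 0.01, Ccnd2 from -0.11 to 0.06, Ccnd3 from -0.09 to 0.07, Cdkn2a from -0.48 to 0.26 and Cdkn2b from -0.12 to 0.16. In the interaction, Ccnd1 ranged from -0.08 to 0.16, Ccnd2 from -0.11 to 0.07, Cdk4 from -0.12 to 0.01, Cdkn2a from -0.49 to 0.26 and Cdkn2b from 0.00 to 0.29.

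With the replicate number as a replicate block, genes called were 5708 for PE in knockdown cells, 5171 for PE in control cells, 2269 for the knockdown in PE, 822 for the knockdown in PBS and 12 in the interaction, and members called were 6, 4, 2, 0 and 0, the same counts as without the block. Of 12 libraries, 3 correlated best with their own number. Depth limits Cdkn2a, with 2 to 9 reads per library, and under the filter of a CPM of at least 1 in 3 libraries it was not tested.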
